A study of Solanum tuberosum with 10 samples.

Results

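The late response of in vitro potato to ultrasound was read from 2 of the 10 RNA-seq libraries of the series, the ultrasonicated (US) plantlets and their untreated controls after 4 w of subculture. Both groups were wild-type Solanum tuberosum of the cultivar Desirée, a crop plant grown for its tubers, started as single-node explants from plantlets aged 4 w and grown without growth regulators. The US explants had been exposed once, at 35 kHz and 70 W for 20 min, directly after being placed on medium, and the controls were handled alike without the exposure. The other 8 libraries were control and US at 0 h, 24 h, 48 h and 1 w. Each group was 1 library, pooled from 3 biological replicates per the methods of the study, so at 4 w no spread between replicates could be measured and no test was made. Comparisons below are between libraries. Their intervals cover counting error alone and are too narrow even for that, because a read pair could be counted more than once. The direction of every difference rests on the labels of these 2 libraries, which no gene of known response could check. The paper reports that RT-qPCR gave the same direction as RNA-seq for all genes it measured. It lists the gene that fell most and the gene that rose most here among them. Those RT-qPCR values were not used here.

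The labels name leaf for all samples, whereas the methods describe leaves, stems and roots for the plantlets of 1 w and 4 w. Genes of photosynthesis were present in both libraries (13 listed genes, none at 0 reads, 959 RPM summed in the control and 1016 RPM in US, against 502 to 2299 RPM in the other 8 libraries). Genes that build or guard the root barrier were present as well, and differed more (3 listed genes, 171 RPM summed in the control and 49.2 RPM in US, against 59.4 to 265 RPM in the other 8). The explants of 0 h to 48 h, single-node segments with a leaf, had 59.4 to 207 RPM. The sum was thus not particular to rooted plantlets, but its members differed. CASP-like protein 4D1 made up 51.5 RPM of the 77.7 RPM in the control at 0 h, whereas the CASP-like protein 1 gene described below was low before 1 w. RPM is reads per 1000000 reads of the library. The library totals were 45837187 reads for the control and 39450276 for US, so that 1 RPM stood for 45.8 and 39.5 reads. In such bulk material fewer cells of a type and less RNA per cell cannot be told apart, and the part of tissue make-up in the results was not tested.

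Several gene families recur in this comparison. Protease inhibitors of the Kunitz, potato inhibitor and cystatin types block digestive enzymes of insects and microbes and are abundant storage and defence proteins of potato. Plants short of oxygen turn to fermentation through pyruvate decarboxylase and alcohol dehydrogenase, while plant cysteine oxidases act as oxygen sensors and non-symbiotic hemoglobins scavenge nitric oxide. Non-specific lipid transfer proteins are small secreted carriers of lipids found mostly in the epidermis, where GDSL lipases and mid-chain alkane hydroxylases take part in making the cuticle. Zinc finger proteins of the ZAT10 type, ethylene response factors and WRKY factors are known as early regulators of stress responses. The names used below are those in the list of the study, since the deposited table gives identifiers alone.

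RT-qPCR primers of the study exist for the gene that fell most at 4 w and for the locus of the gene that rose most, and are shown to identify these loci. The primers of the latter carry the identifier of the gene that encloses it, so which of the pair they amplify is not known here. They are shown 5′ to 3′, in lower case, with the forward primer first. The last 4 belong to lipid transfer protein genes discussed below, and their capitals mark the bases at which the primers of the 2 loci differ. For PGSC0003DMG402031237 the paper lists the overlapping PGSC0003DMG401031237 as the gene measured. Which of these the primers amplify is not known here either.
PGSC0003DMG400010170 (Kunitz-type inhibitor DrTI-like) forward: ctaacttcgtctgtccct
PGSC0003DMG400010170 reverse: ccttctacttgccacact
PGSC0003DMG401012985 (locus of the glycosyltransferase gene) forward: gaccgtgaagaagctattt
PGSC0003DMG401012985 reverse: gcttcagcagtaagtgga
PGSC0003DMG400002471 (lipid transfer protein) forward: ctccAtgcctcccTtatct
PGSC0003DMG402031237 (lipid transfer protein) forward: ctccTtgcctcccAtatct
PGSC0003DMG400002471 reverse: ttgcccacatTaatgcct
PGSC0003DMG402031237 reverse: ttgcccacatCaatgcct
Counted from 1 at the 5′ end, the differences from PGSC0003DMG400002471 to PGSC0003DMG402031237 were A5T and T14A in the forward primer and T11C in the reverse primer. Copies this alike may share reads that cannot be placed uniquely, so their separate values are uncertain.

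A gene was called past the rule of size when its log2 RPM differed by at least 2, a 4-fold difference, and the higher library had at least 1 RPM. Of 21114 genes tested, 505 were up-regulated in US (2.39%) and 639 down-regulated (3.03%). The median difference over all genes tested was 0.02 on the log2 scale, and 81.9% of them differed by less than 1. The median rise was 2.67 and the median fall -2.83 on the log2 scale, with extremes of 9.01 and -11.00. The 95% counting interval of the ratio lay wholly beyond 2-fold for all 505 rises and all 639 falls. The rule of size all but fixes this outcome at these depths, so it adds nothing to the calls. In 26 of the rises the control had no reads, and in 46 of the falls US had none. Genes past the rule were shorter than the rest, with a median span of 1876 bp for rises and 1608 bp for falls against 3491 bp for all genes tested. The down-regulated genes took 1.43% of the summed RPM in the control and 0.159% in US, whereas the up-regulated genes took 0.131% and 0.728%. At a threshold of 1 on the log2 scale the order turned, to 2020 rises and 1801 falls, and with no minimum it was 1578 rises and 1456 falls.

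The difference was then laid out by expression level. The level of a gene was its mean RPM over the 8 libraries of other times, which play no part in the contrast. The choice of genes tested does depend on the contrast, since 1 of its libraries had to reach 1 RPM. Genes below 1 RPM elsewhere thus entered only through a higher value at 4 w, which favours large differences in that class. There were 6 classes, with edges at 1, 4, 16 and 64 RPM and a last edge 4-fold above these. Below 1 RPM, 19% of the 693 genes tested were up-regulated and 12.7% down-regulated. From 1 to 4 RPM the shares were 7.13% and 7.25% of 2622 genes, and rises and falls were thus about as frequent there. From 4 RPM on, falls were more frequent than rises in every class. They made up 4.64% against 2.28% of 4526 genes from 4 to 16 RPM, 1.41% against 0.790% of 7090 genes from 16 to 64 RPM, and 0.737% against 0.450% of 4884 genes in the class from 64 RPM. Among the 1299 genes of the highest class, 1.15% fell and 0.385% rose, which is 15 and 5 genes.

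Genes under 4 RPM were 15.7% of those tested and 52.2% of those past the rule, with 63.2% of the rises and 43.5% of the falls. The median size of the difference declined from 1.39 in the lowest class to 0.33 in the highest on the log2 scale. In the lowest class the minimum of 1 RPM at 4 w has a part in this size and in the shares. The median counting SD declined from 0.33 to 0.02. The same classes at the other 4 times, with the same minimum in the libraries of each time, gave the scale for these shares. Falls exceeded their range at the other times in the 4 classes from 4 RPM on, with 4.64% against at most 3.02%, 1.41% against 0.831%, 0.737% against 0.394% and 1.15% against 0.392%. Rises exceeded theirs in the 3 classes between 1 and 64 RPM, with 7.13% against at most 4.65%, 2.28% against 1.8% and 0.790% against 0.578%. In the upper classes the rises lay inside the range of the other times, as did the falls from 1 to 4 RPM, with 7.25% in a range of 3.10% to 8.33%. Below 1 RPM the shares at 4 w lay inside the range of the other times, 5.43% to 20.8% for rises and 6.15% to 21% for falls. The number of features with 1 to 5 reads was 1206 in the control and 2021 in US, against 866 to 1922 in the other libraries, and its part in the calls among weakly expressed genes was not tested. On the scale of log2(RPM + 1) the share past the rule under 4 RPM was 1.84%, against 18% on the deposited scale.

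**Figure D1:**
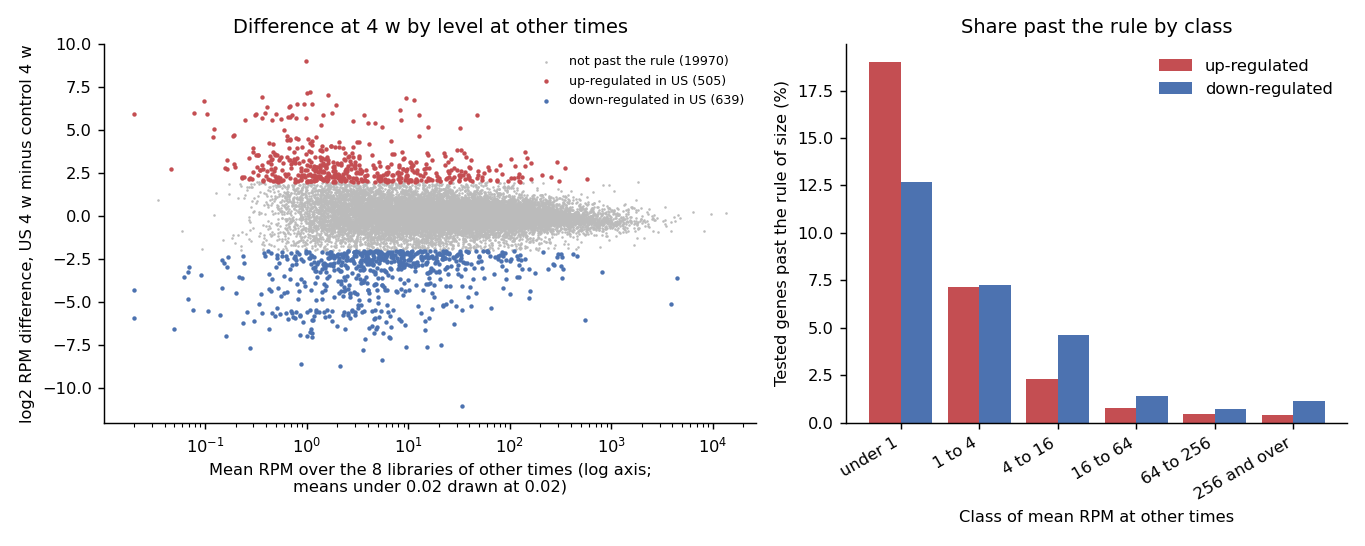
Left, the log2 RPM difference at 4 w (US minus control) of each of the 21114 genes tested against its mean RPM over the 8 libraries of other times on a log axis. Right, the percent of genes of each level class up-regulated (red) and down-regulated (blue), falling from 19% and 12.7% under 1 RPM to 0.385% and 1.15% in the highest class.

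Along the genome the differences were spread over all 12 chromosomes of the SolTub 3.0 build. Rises made up between 1.79% of the genes tested (chromosome 1) and 3.24% (chromosome 11), and falls between 2.16% (chromosome 11) and 4.48% (chromosome 10). Falls outnumbered rises on 10 chromosomes. The exceptions were chromosome 8, with 42 rises and 32 falls, and chromosome 11, with 45 and 30. Median differences of the chromosomes lay between -0.02 and 0.05 on the log2 scale, so no chromosome was shifted as a whole. The unplaced sequence held 6.05% rises and 5.53% falls among 380 genes, of which 35.3% were of the classes under 4 RPM against 13.2% to 18.2% on the placed chromosomes.

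Some of these shares rested on weakly expressed genes. With at least 4 RPM in the higher library, the falls on chromosome 10 were 1.46% of genes tested, below those of chromosomes 1, 2, 3, 6, 7, 8, 9 and 12. Chromosomes 8 and 11 kept more rises than falls (28 and 19, and 20 and 9), and chromosome 6 then had 27 rises and 24 falls. At a threshold of 1 on the log2 scale, falls outnumbered rises on 3 chromosomes, and with log2(RPM + 1) on 5.

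**Figure D2:**
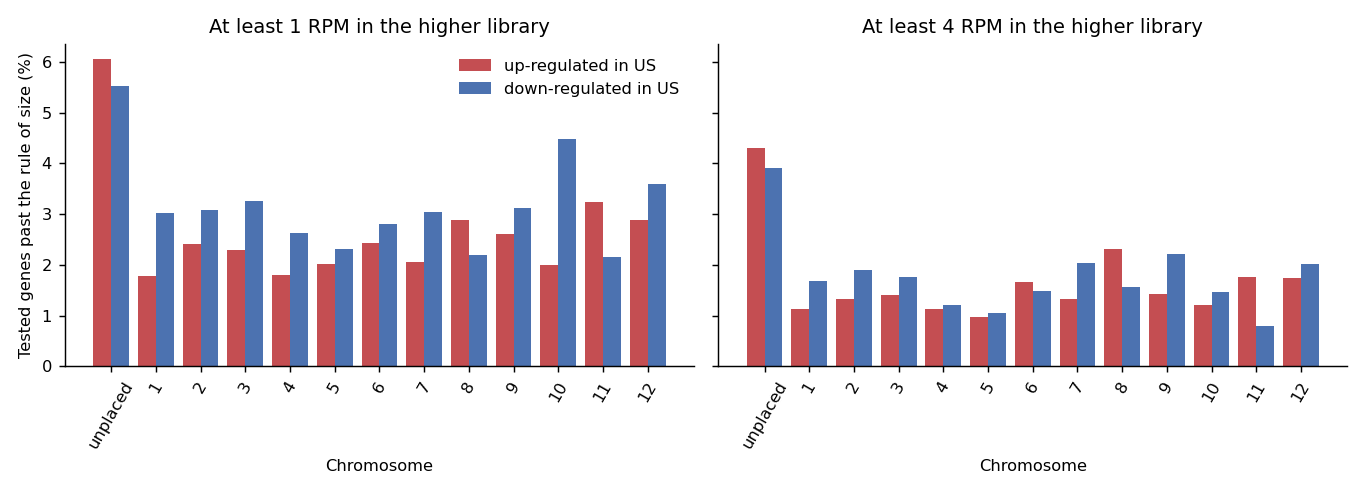
Percent of genes tested that were up-regulated (red) and down-regulated (blue) in US at 4 w on each chromosome, with a minimum of 1 RPM (left) or 4 RPM (right) in the higher library. The falls on chromosome 10 are 4.48% on the left and 1.46% on the right, and chromosomes 8 and 11 have more rises than falls in both.

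At finer scale, 717 windows of 1 Mb held a gene tested, 290 of them with no gene past the rule and 103 with 4 or more. The window with most was chromosome 7 from 48 to 49 Mb, with 14 falls and 1 rise among 49 genes. Chromosome 12 from 5 to 6 Mb followed with 12 falls and 1 rise among 53 genes. Next were chromosome 1 from 83 to 84 Mb with 5 falls and 5 rises, and chromosome 10 from 59 to 60 Mb with 6 falls and 3 rises. Behind these, 5 windows had 8 each. The first 2 windows thus stood out by direction as well as by number.

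Both owed this to a run of short neighbouring genes. Runs of consecutive tested genes past the rule in 1 direction were looked for after these windows had been seen, and 3 runs of 5 or more genes were found, all falls. The longest, 10 genes within 29.3 kb on chromosome 7 (48345195 to 48374465), held genes of 462 to 746 bp, 9 of them on the plus strand. The study names 3 of them, all as hypothetical or uncharacterized proteins. Each fell, by log2 differences of -2.35 to -6.41. Their summed level was 145 RPM in the control and 16.7 RPM in US, 8.69-fold lower (95% interval 8.02 to 9.43). The other libraries spanned a wider range, since the run reached 349 RPM in the control and 749 RPM in US at 24 h, and stood at 28.2 RPM and 75.5 RPM at 1 w. Thus the level of US at 4 w was below that of all 8 other libraries, while the control at 4 w was within their range.

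The run on chromosome 12 (5177773 to 5246704) was 9 genes of 486 to 690 bp within 68.9 kb, all on the minus strand, none of them with a name in the list. It summed to 101 RPM in the control and 4.36 RPM in US, 23.1-fold lower (95% interval 19.8 to 27), with log2 differences of -3.08 to -8.71. Its course over time was unlike that of the run on chromosome 7. It was at 3.57 RPM in the control and 8.80 RPM in US at 0 h, and rose to 131 RPM and 44.9 RPM at 1 w. The member PGSC0003DMG400020674 (5220524 to 5221009) had 488 control and 1 US reads at 4 w, a 420.0-fold lower RPM (95% interval 75 to 16623). Among the other libraries it had 2 to 457 reads. The early nodulin-93-like gene of the low-oxygen list lies beyond this run on the same chromosome.

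The third run was made of 5 genes of protease inhibitors on chromosome 3 (49798113 to 49956945), with 11805 RPM summed in the control and 908 RPM in US, 13-fold lower (95% interval 12.9 to 13.1). PGSC0003DMG400009513 alone had 9272 RPM of the sum in the control and 765 RPM of that in US. The run had 617 RPM to 26583 RPM in the other libraries, with 2095 RPM in the control and 617 RPM in US at 1 w. Both sums of 4 w were thus within that range. Of the rises, the longest run was 4 genes on chromosome 1 (2904989 to 2923755). It held a gene listed as E3 ubiquitin-protein ligase PUB23-like, an enzyme that marks proteins for breakdown, and went from 1.77 RPM to 33.3 RPM, 18.9-fold (95% interval 15.1 to 23.9). These 4 genes were at 176 RPM and 106 RPM at 0 h and at 2.70 RPM and 3.41 RPM at 1 w in control and US. Members of a run share position and may share sequence, which was not compared here, so they are not taken as independent observations.

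**Figure D3:**
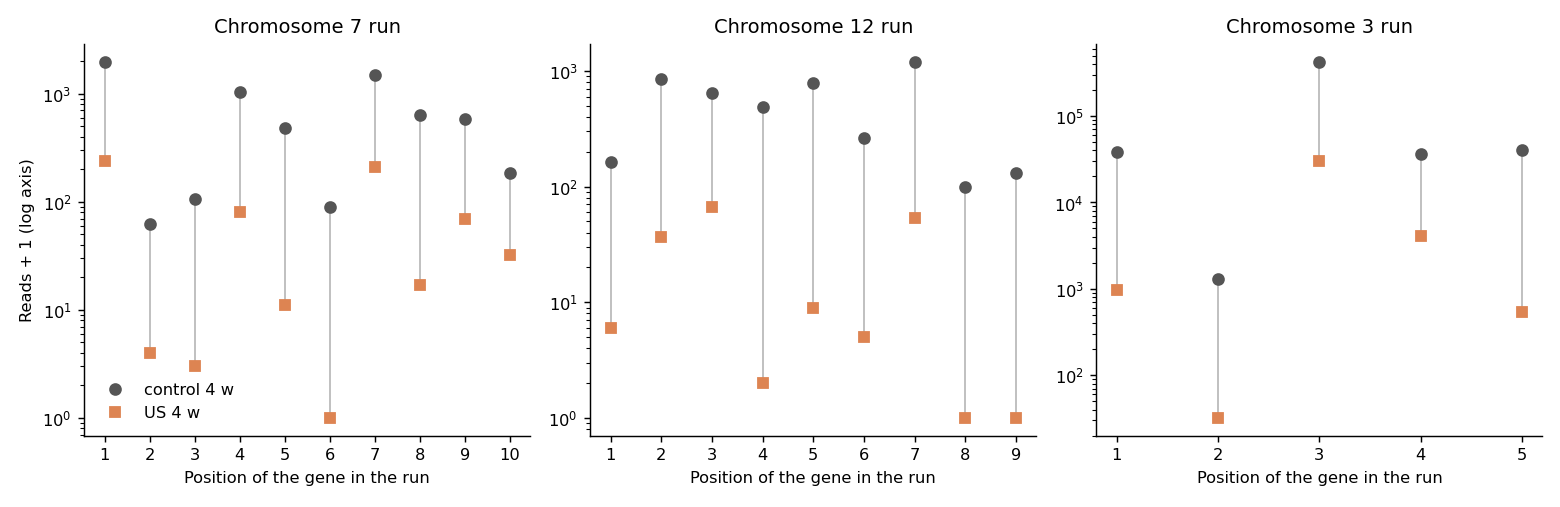
Reads plus 1, on a log axis, of each gene of the 3 longest runs of falls, in order along the chromosome, in the control (grey circles) and US (orange squares) at 4 w. Every gene of the 3 runs is lower in US, and the most abundant, a Kunitz precursor, has 425019 reads in the control and 30187 in US.

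The next question was whether the genes that differed at 4 w were those that change between 1 w and 4 w without treatment. In the control this step raised 318 of 21701 genes past the rule (1.47%) and lowered 1325 (6.11%). Most genes of the 4 w comparison were not among them: 388 of the 505 rises (76.8%) and 499 of the 639 falls (78.1%) passed in neither direction in the control. The same was so for most of all genes tested, by the shares just given, so this is no mark of the genes of 4 w. Of the 505 rises, 111 had gone down in the control from 1 w to 4 w, which is 22% of the rises and 8.38% of the control step. Another 6 had gone up (1.19%). Over all genes 6.11% went down and 1.47% up. Of the 639 falls, 85 had gone up in the control (13.3% of the falls, 26.7% of the step) and 55 had gone down (8.61% of the falls). Except for the rises that had gone up, these shares were above those of all genes. The control library of 4 w enters both comparisons, which ties these counts to each other, so they are a description and no evidence of a link. The count of 111 depended on the scale, with 12.9% of the rises under quantile normalization and 5.81% with a minimum of 4 RPM.

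The levels of these sets in the 4 libraries of 1 w and 4 w are a description, as the sets were chosen on 3 of them. The 111 rises that went down in the control had a median log2 RPM of 1.34 (control) and 0.70 (US) at 1 w, and of -1.82 and 1.40 at 4 w. Their median step from 1 w to 4 w was -2.97 in the control and 0.69 in US. The former was required by the choice. The latter was tied to it, since US had to be at least 4-fold above the control at 4 w. The 85 falls that went up in the control had medians of -1.54 and -0.88 at 1 w, and of 1.97 and -1.98 at 4 w. Their median steps were 2.95 in the control, again by choice, and -0.66 in US, tied to the choice in the same way. In the 499 falls without a control step the medians were 2.28 and 2.34 at 1 w, 1.81 in the control at 4 w and -0.98 in US, with median steps of -0.28 and -3.41. A larger step in US is built into this set, whose members were called at 4 w and not in the control step. The 388 rises without a control step had medians of 0.58 and 0.67 at 1 w, and of -0.33 and 2.26 at 4 w.

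The same step within US raised 1000 of 21877 genes (4.57%) and lowered 2433 (11.1%). It shares no library with the control step. Of the 318 genes raised in the control, 132 were raised in US as well (41.5% of the control list, 13.2% of the US list), and 16 were lowered. Of the 1325 genes lowered in the control, 917 were lowered in US (69.2% and 37.7%), and 14 were raised. The median step of the genes lowered in the control was -2.83 in the control and -3.30 in US. For the genes raised it was 2.65 and 1.98.

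Which of the 2 libraries stood apart was read against the range of the other 8. The level in US at 4 w lay outside that range for 597 of the 1144 genes past the rule (52.2%) and that of the control for 330 (28.8%), against 34.6% and 23.9% of all genes tested. Among the falls, US alone was outside for 285 genes, the control alone for 93, both for 49 and neither for 212. Among the rises the numbers were 195, 120, 68 and 122. The 8 libraries of other times did not choose these genes, and their median log2 RPM over the 639 falls was 0.24 to 2.34. In the pair that chose them it was 1.74 in the control and -1.30 in US. Over the 505 rises the medians were 0.66 to 1.27 at the other times, and -0.76 and 2.04 in the pair.

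**Figure D4:**
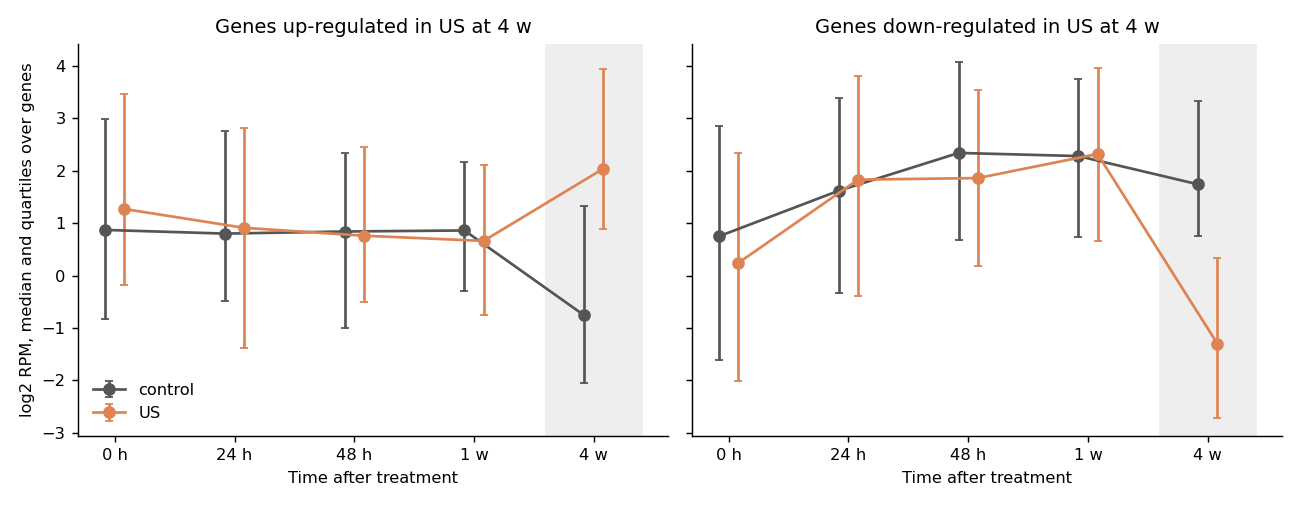
Median and quartiles of log2 RPM over the 505 genes up-regulated (left) and the 639 down-regulated (right) at 4 w, in the control (grey) and US (orange) libraries at each time; the shaded pair chose the genes. Up to 1 w the medians of the treatments lie closer together than at 4 w. At 0 h they are 0.87 (control) and 1.27 (US) on the left, and 0.75 and 0.24 on the right. At 4 w US stands at 2.04 on the left and at -1.30 on the right.

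Differences at the other times share no library with those of 4 w. At 0 h, 327 of the 505 rises (64.8%) were higher in US too, with a median difference of 0.55 on the log2 scale, against 51.9% and 0.03 over all genes tested. Of the 639 falls, 439 (68.7%) were lower in US at 0 h, with a median of -0.43, against 48.1% of all genes. At 24 h the shares of the same direction were 46.3% of the rises and 44.3% of the falls, against 43.5% and 56.5% of all genes. At 48 h they were 50.9% and 62.4%, against 46.4% and 53.6%, and at 1 w 42.4% and 45.9%, against 49.7% and 50.3%. Both sets thus exceeded all genes at 0 h and 48 h and lay below them at 1 w, and at 24 h the rises lay above and the falls below. On the scale of log2(RPM + 1) the shares were 52.3% for 151 rises at 24 h, and 51% for these rises and 54.3% for 184 falls at 1 w, so the lean at 1 w depended on the scale. By the rule of size, which 1.70% of all genes passed upwards and 2.06% downwards at 0 h, 45 of the 505 rises went up and 7 down, and of the 639 falls 11 and 52. At 24 h, with 1.40% and 1.81% of all genes, 24 rises went up and 34 down, and of the falls 27 and 20. At 48 h, with 1.39% and 2.80%, the numbers were 29 and 16 for the rises and 19 and 73 for the falls. At 1 w, with 0.562% and 1.17%, they were 7 and 16 for the rises and 15 and 40 for the falls. Genes of both sets passed in both directions at each of these times, with the widest gaps between directions at 0 h for the rises and at 48 h for the falls.

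Gene groups were formed from the names in the list of the study. The rule of size was passed upwards by 59 and downwards by 84 of the 160 genes listed at 4 w. As the study chose them on these 2 libraries, their counts and directions are not independent evidence and serve to describe the response. The 207 genes it lists only at other times were not chosen on these libraries. Of these, 184 were tested at 4 w, of which 3 rose (1.63%) and 21 fell (11.4%), against 2.39% and 3.03% of all genes. Their median difference was -0.32 on the log2 scale. The shares of all genes are also the scale for the counts of such genes in each group below.

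Protease inhibitors included the gene that fell most. All 9 listed at 4 w were down-regulated, with a median log2 difference of -5.09. The supplementary text of the study gives both directions at 4 w for inhibitors of such names. The directions here are those under the labels of the 2 libraries. The Kunitz-type inhibitor DrTI-like gene PGSC0003DMG400010170 (chromosome 3, 43994118 to 43995506, minus strand) had 14314 control and 6 US reads, a 2053-fold lower RPM (95% interval 943 to 5596). At 1 w it had had 2706 and 2444 reads, and over the other 8 libraries 140 to 2706, so both libraries of 4 w lay outside their range, in opposite directions. Proteinase inhibitor II (PGSC0003DMG400004547) went from 40677 to 541 reads, 64.7-fold lower (95% interval 59.4 to 70.6), after 1545 and 2393 reads at 1 w. In contrast to the former, only US stood outside the range of the other libraries here, with 1545 to 42462 reads elsewhere.

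Among the Kunitz precursors next to it on chromosome 3, PGSC0003DMG400009513 had 425019 control and 30187 US reads, 12.1-fold lower (95% interval 12 to 12.3). Elsewhere it ranged from 10264 reads in US at 1 w to 511055 in US at 48 h, so neither library of 4 w was extreme. PGSC0003DMG400009511 went from 37979 to 957 reads, below its 2796 to 542279 reads elsewhere. The Kunitz-type inhibitor B gene PGSC0003DMG400010128 went from 2955 to 59 reads, 43.1-fold lower (95% interval 33.3 to 56.8), and proteinase inhibitor 1 (PGSC0003DMG400012089) from 17420 to 1455. The inhibitors listed only at other times leaned the same way. All 6 tested had values below 0, and 2 passed as falls: a cysteine protease inhibitor 8-like gene (PGSC0003DMG400010144, 328 to 31 reads) and a putative cystatin (PGSC0003DMG400005921, 2109 to 417 reads), an inhibitor of papain-type proteases. The others had differences of -0.85 to -1.66. Cysteine proteinase 3 (PGSC0003DMG400027888), an enzyme of the kind that such inhibitors block, went from 95301 to 8761 reads, 9.36-fold lower (95% interval 9.16 to 9.57). Sequences of these genes were not compared here. Where members are alike, the split of reads among them is uncertain.

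The genes known from low oxygen fell together. All 8 listed at 4 w were down-regulated, with log2 differences from -2.82 to -6.31 and a median of -3.60. Alcohol dehydrogenase (PGSC0003DMG400030771), which recycles NADH in fermentation, had 8120 control and 257 US reads, 27.2-fold lower (95% interval 24.0 to 30.9). At 1 w it had had 1927 and 4814 reads, and no other library had fewer than 1518. Pyruvate decarboxylase 1 (PGSC0003DMG400022953), the enzyme before it, went from 2805 to 133 reads, 18.2-fold lower (95% interval 15.2 to 21.8), after 746 and 1676 reads at 1 w. The cysteine oxidase 2-like gene (PGSC0003DMG400018080) went from 370 to 4 reads, and non-symbiotic hemoglobin 1 (PGSC0003DMG400030927) from 6351 to 445. For all 4 the US library lay below the other 9.

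Sucrose synthase (PGSC0003DMG400002895), which breaks sucrose with little use of ATP, went from 1562 to 137 reads. A second sucrose synthase-like gene, listed only at 48 h, had 1042 and 786 reads, a log2 difference of -0.19. The early nodulin-93-like gene (PGSC0003DMG400020681) went from 1598 to 115 reads, and 13 to 1519 reads were found elsewhere. The remaining members, listed as universal stress protein A-like, went from 12591 to 1534 reads (PGSC0003DMG400002804) and from 2422 to 218 (PGSC0003DMG401033888, whose span overlaps another gene). The median step from 1 w to 4 w over the 8 genes was 1.45 in the control and -3.65 in US on the log2 scale. Both steps end in the libraries on which the study listed these genes, so the gap between them is tied to that choice.

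Lipid transfer proteins were lower throughout. Of the 8 listed at 4 w, 7 were down-regulated and the other had a difference of -1.88, and the median was -2.44. The gene listed as lipid transfer protein (PGSC0003DMG400032249) had 3025 control and 30 US reads, 86.8-fold lower (95% interval 60.7 to 129). PGSC0003DMG400031127 on chromosome 1 had 2734 and 33 reads, 71.3-fold lower (95% interval 50.6 to 104). Both had been at 1 to 37 reads at 0 h and 24 h with 1 exception of 81, and at 534 to 919 reads at 1 w, and in both the control at 4 w was the highest of the 10 libraries. PGSC0003DMG400012838 (chromosome 10) had 206 and 1 reads, 177-fold lower (95% interval 31.5 to 7036).

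On unplaced sequence 4 neighbours, PGSC0003DMG400011951 to PGSC0003DMG400011954, fell 4.24-fold to 5.77-fold. Of the 5 tested that are listed only at other times 4 were down-regulated. They include the 2 loci whose primers are shown above: PGSC0003DMG400002471 had 57 control and 0 US reads, at least 16.4-fold lower, and PGSC0003DMG402031237 had 124 and 11 reads, 9.70-fold lower (95% interval 5.24 to 19.9). At 48 h the order had been the reverse, with 4 and 625 reads of the former and 323 and 3662 of the latter. PGSC0003DMG401031237, which overlaps the latter, had 87 and 2 reads, and PGSC0003DMG400012839 had 12669 and 2549.

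Genes of the epidermis and cuticle differed in both directions. Of 7 listed at 4 w, 4 were down-regulated and 1 up-regulated, while the 3 tested that are listed only at other times had differences of -0.64 to -0.06 that missed the rule. An alkane hydroxylase MAH1-like gene (PGSC0003DMG400031199), of the enzymes that oxidise wax alkanes, had 211 control and 0 US reads, at least 60.5-fold lower. It was at 0 reads in all 6 libraries up to 48 h. A GDSL esterase/lipase gene (PGSC0003DMG400028703) had 203 and 0 reads, at least 58.2-fold lower, after 800 and 1686 reads at 1 w. Another (PGSC0003DMG400007815) went from 1106 to 26 reads, and protodermal factor 1-like (PGSC0003DMG400017342), a marker of the outermost cell layer, from 2654 to 273, 8.37-fold lower (95% interval 7.38 to 9.51). At 1 w the latter had had 11215 and 16781 reads. A second gene of that name (PGSC0003DMG400007796) had 6928 and 1565 reads, a difference of -1.93 that missed the rule. In contrast FAMA (PGSC0003DMG400015760), a bHLH factor that in Arabidopsis turns guard mother cells into guard cells, rose from 142 to 1517 reads, 12.4-fold (95% interval 10.4 to 14.8), with at most 591 reads elsewhere. A FAMA-like gene (PGSC0003DMG400029634) had 1341 and 4117 reads, a difference of 1.83 that missed the rule. Summed over the 11 genes of this list found at any time, the level was 289 RPM in the control, with 1 gene at 0 reads, and 203 RPM in US, with 3 at 0 reads. The other 8 libraries had 195 to 866 RPM, and the part of epidermal cell share in these differences was not tested.

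Genes listed for the root barrier were lower. A CASP-like protein 1 gene (PGSC0003DMG400022659), of the family that guides the Casparian strip in the root endodermis, had 1519 control and 30 US reads, 43.6-fold lower (95% interval 30.4 to 64.8). At 1 w it had 771 and 1289 reads, and before that at most 119. A gene listed as CASPARIAN STRIP INTEGRITY FACTOR 2-like (PGSC0003DMG400030948), a peptide signal of that barrier, went from 5736 to 1152 reads. CASP-like protein 4D1, listed at 1 w, had a difference of 0.58. Photosynthesis genes showed no common direction. Among the 11 tested that are listed at 0 h or 1 w, 0 passed in either direction, against 2.39% and 3.03% of all genes. For so few genes this count is near those shares. Their differences ranged from -0.51 to 1.02 with a median of 0.16. Chlorophyll a-b binding protein 4 (PGSC0003DMG400004301), the only member listed at 4 w, had 5540 and 1310 reads, a difference of -1.86 that missed the rule.

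Cell wall genes moved in both directions. Of 11 listed at 4 w, 5 were down-regulated and 4 up-regulated. Expansin-like B1 (PGSC0003DMG400026221), of a family that loosens the wall, went from 3147 to 106 reads, 25.6-fold lower (95% interval 21.1 to 31.3). A glycine-rich structural protein gene (PGSC0003DMG400015809) went from 441 to 10 reads and a glycine-rich protein HC1-like gene (PGSC0003DMG400031535) from 1991 to 79. A beta-glucan endohydrolase (PGSC0003DMG400020017), an enzyme that cuts wall glucans, rose from 288 to 2558 reads, 10.3-fold (95% interval 9.13 to 11.7), and a BURP domain gene (PGSC0003DMG400027019) from 404 to 3137. For the latter the control was the library of note, since US had 3107 reads at 1 w already. Among the 27 tested that are listed only at other times, 1 rose and 3 fell, with a median of -0.73. The 3 falls were a glycine-rich structural protein gene (103 to 7 reads), a glucan endo-1,3-beta-glucosidase 12-like gene (199 to 28) and an ESKIMO 1-like gene (114 to 17), which acetylates xylan in Arabidopsis.

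Of the 8 defence genes listed at 4 w, 5 were down-regulated and 2 up-regulated, with a median difference of -5.53. The rises were a rust resistance kinase Lr10-like gene (PGSC0003DMG400029128, 1342 and 6160 reads) and a TMV resistance protein N-like gene (PGSC0003DMG400006003, 734 and 3328 reads). The most abundant, a TAP1-like gene (PGSC0003DMG400006721), had 35517 and 8428 reads, a difference of -1.86 that missed the rule. The falls were the basic secretory protease gene PGSC0003DMG400025765, with 504 control and 2 US reads, defensin-like protein 1 (PGSC0003DMG400024205), a small antimicrobial protein, with 916 and 15, and 3 kirola-like genes. The largest fall of the kirola-like genes was from 841 to 6 reads (PGSC0003DMG400023236), and the others went from 1435 to 20 and from 379 to 8. The defensin gene had at most 196 reads elsewhere, so the control at 4 w was the library that stood out. None of the 12 tested that are listed only at other times passed the rule (0 in each direction), and their median was -0.10. For so few genes this is near the shares of all genes, 2.39% for rises and 3.03% for falls.

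Of 6 genes of phenylpropanoid and redox metabolism listed at 4 w, 4 fell and 1 rose. The most abundant, catalase isozyme 1 (PGSC0003DMG400029408), which breaks down hydrogen peroxide, went the other way, from 48444 to 164356 reads, a 3.94-fold difference (95% interval 3.9 to 3.98) that just missed the rule. With it, the summed level of the 6 genes was 1680.1 RPM in the control and 4318 RPM in US. Phenylalanine ammonia-lyase (PGSC0003DMG402021549), the entry enzyme of phenylpropanoids, had 27044 control and 4992 US reads, 4.66-fold lower (95% interval 4.52 to 4.81). A monothiol glutaredoxin-S1-like gene (PGSC0003DMG400030105) went from 508 to 10 reads, a probable L-gulonolactone oxidase (PGSC0003DMG400024003) from 315 to 2 and an inositol oxygenase 1-like gene (PGSC0003DMG400004872) from 583 to 24. A cytochrome P450 98A2-like gene (PGSC0003DMG400007180) rose from 118 to 958 reads. Again 0 of the 12 tested that are listed only at other times passed, near the shares of all genes (2.39% and 3.03%) for so few.

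Among the groups formed by function, transcription factors had most rises. Of 15 listed at 4 w besides FAMA, 9 were up-regulated and 5 down-regulated, and a WRKY 31 gene (PGSC0003DMG400015015) had 1603 and 5463 reads, a difference of 1.99. All 3 genes listed as ZAT10-like, zinc finger repressors induced by stress, were higher. PGSC0003DMG400041467 went from 145 to 1585 reads, 12.7-fold (95% interval 10.7 to 15.2), its neighbour PGSC0003DMG400011548 from 326 to 1827 and PGSC0003DMG400021508 from 1778 to 7936. At 1 w the first of these had 117 and 199 reads and at 24 h 963 and 2186, so neither library of 4 w was outside the range of the others. The same held for the ethylene response factor genes ERF017 (PGSC0003DMG400002899, 66 and 810 reads, 12 to 4125 elsewhere) and ERF4-like (PGSC0003DMG400022823, 720 and 3035 reads, 490 to 15123 elsewhere), and for the NAC 29-like gene (PGSC0003DMG400002824, 656 and 2649 reads).

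The nodulation-signaling pathway 1-like gene (PGSC0003DMG400039263) went from 550 to 2468 reads and a CCCH zinc finger gene (PGSC0003DMG401025318) from 323 to 1909, each to the highest level of the 10 libraries. A scarecrow-like protein 3 gene (PGSC0003DMG400004649) of the GRAS family went from 643 to 2627 reads. The 5 falls were of other families. A WRKY 40 gene (PGSC0003DMG400007387) had 345 control and 0 US reads, at least 99.0-fold lower, with 13 to 501 elsewhere. A B-box zinc finger gene (PGSC0003DMG400025970) had 307 and 2 reads. Next to it on chromosome 1, YABBY 1 (PGSC0003DMG400025969), which marks the lower side of young leaves, had 601 and 31. A growth-regulating factor 1-like gene (PGSC0003DMG400013004), of a family active in dividing leaf cells, had 662 and 38, and PAR1 (PGSC0003DMG400025144) 3148 and 563. YABBY 1 and the growth-regulating factor had been at 1608 and 3143 and at 970 and 1187 reads at 1 w, so that US at 4 w was far below its own earlier level. Of 9 factors tested that are listed only at other times 0 passed, with a median of -0.84. That count is near the shares of all genes (2.39% and 3.03%) for so few.

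Of 6 hormone genes and flowering regulators listed at 4 w, 3 rose and 2 fell, with some of the steepest rises among them. CEN-like protein 1 (PGSC0003DMG400014322), of the family of flowering repressors, had 8 control and 737 US reads, 107-fold higher (95% interval 54.0 to 249). As it had 11 to 1197 reads elsewhere, the control was the library outside the range. The gene listed as 1-aminocyclopropane-1-carboxylate synthase (PGSC0003DMG400033885), which makes the precursor of ethylene, rose from 38 to 1197 reads, 36.6-fold (95% interval 26.5 to 52.0), and here both libraries were outside the 146 to 1108 reads of the others. A zeatin O-glucosyltransferase-like gene (PGSC0003DMG400035573), of the enzymes that store cytokinins, rose from 12 to 445. In the other direction TAS14 (PGSC0003DMG400003530), a dehydrin induced by abscisic acid, went from 1752 to 20 reads, 75.4-fold lower (95% interval 48.7 to 124), and a gibberellin-regulated protein 3-like gene (PGSC0003DMG400015602) from 2051 to 106. The sixth, a gibberellin-regulated protein 10-like gene (PGSC0003DMG400024474), had 6339 and 1392 reads, a difference of -1.97 that missed the rule. Both aquaporins listed at 4 w rose, TIP2-1 of the vacuole membrane (PGSC0003DMG400002552) from 6026 to 23065 reads and the X intrinsic protein (PGSC0003DMG400004438) from 1258 to 5875. The aquaporins listed at 0 h and 48 h had differences of -0.16 and -0.50.

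**Figure D5:**
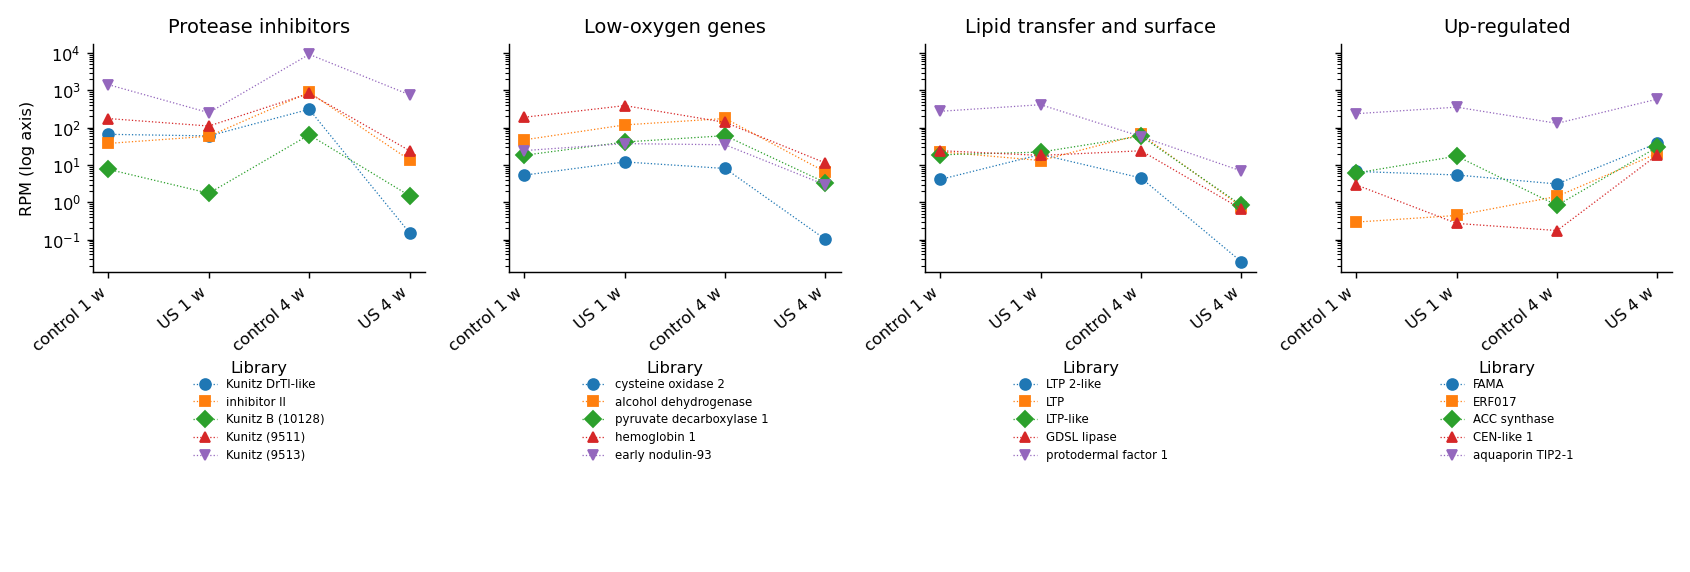
RPM, on a log axis, of 20 named genes in the control and US libraries of 1 w and 4 w; each point is 1 library and dotted lines join the points of a gene. In the first 3 panels US at 4 w is far below the control at 4 w, down to 6 against 14314 reads for the Kunitz-type inhibitor DrTI-like gene, and in the last panel it is above it.

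The genes whose counting interval lay farthest from 1 were mostly those already named. Among the rises the first was the probable glycosyltransferase gene PGSC0003DMG402012985 (chromosome 9, 4305336 to 4306376, minus strand), with 0 control and 398 US reads, at least 154-fold higher, and 11 to 92 reads elsewhere. The annotation places it within PGSC0003DMG401012985, the locus of the primers, which went from 16 to 541 reads, so reads of the pair may be shared. PGSC0003DMG400010233 (0 and 114 reads), PGSC0003DMG400024286 (0 and 104), PGSC0003DMG400031699 (0 and 96) and PGSC0003DMG401014450 (1 and 125) are without a name. The control was the outlying library for PGSC0003DMG400024286, which had 15 to 186 reads elsewhere, and both were for the other 3. Among the falls an unnamed gene of chromosome 5, PGSC0003DMG400013051, had 450 and 1 reads, with 0 to 190 elsewhere.

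Among the genes past the rule the most abundant at the other times were, for falls, the protease inhibitors and cysteine proteinase 3 named above and a vicianin hydrolase-like gene (PGSC0003DMG400028773, 3473 and 605 reads), a beta-glycosidase. It had 1974 to 32572 reads elsewhere and 19018 and 29136 at 1 w, so both treatments were low at 4 w. For rises they were aquaporin TIP2-1, the BURP domain gene, an unnamed gene of chromosome 7 (PGSC0003DMG400026821, 3156 and 11033 reads), a putative nuclease HARBI1 (PGSC0003DMG400010713, 655 and 3866) and a translation initiation factor 2 subunit gamma-like gene (PGSC0003DMG400008801, 1561 and 6448). The last 3 had their highest levels at 0 h, at 28277, 45373 and 34327 reads in the library where each was highest, and in US at 4 w they were above both libraries of 1 w. Of the remaining named rises and falls of the list, U-box domain-containing protein 19-like (PGSC0003DMG400024491), listed at 0 h, had 0 control and 46 US reads, at least 17.8-fold higher. Probable protein phosphatase 2C 51 (PGSC0003DMG400009112) went from 11573 to 243 reads, 41.0-fold lower (95% interval 36.1 to 46.7), and had stood at 2075 and 235 at 1 w.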

How the data were processed

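Per the submitters' processing notes and the methods, the authors made stranded mRNA libraries, sequenced paired ends, trimmed reads with Trim Galore 0.5.0, aligned them with HISAT2 2.1.0 to SolTub 3.0 and counted exon reads with SeqMonk 1.42.0 at a minimum mapping quality of 60. The deposited values are log2 RPM as scaled by the authors, unfiltered. Whether counting used strand is not given in the sources used here, so the 3124 of 40430 features that overlap another are uncertain. The lowest value of a library equals 0.9 reads. At the totals this implies (33850938 to 45899162 reads), 99.95% to 99.99% of the values of a library were within 0.1 of a whole read. Gene reads summed to 1.71 to 1.77 times the total, so read pairs can count more than once and the intervals below are too narrow.

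With 1 library a side, genes were called by a rule of size. RPM ratios have an exact conditional 95% interval (Clopper-Pearson, SciPy 1.17.1), and a library at 0 reads was set to a floor of 3 reads. Functions were tested on simulated data.

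Genes named were the 8 rises and 8 falls whose interval lay farthest from 1; in each group up to 5 genes listed at 4 w with the largest difference and up to 3 listed only at other times that passed; all factors listed at 4 w that passed; the windows with most calls, as counts; and the 5 most abundant genes past the rule in each direction. Single genes of the runs, and further members of the lists, were named after their values were seen. Members and lists were chosen with earlier results of these data known. Only identifiers, names, times and primers were taken from the supplementary files, and 0 identifiers matched the RefSeq table. Alternatives were other minima, thresholds, scales and centrings, non-overlapping features and other level classes. Leaving out a replicate was not possible.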

Additional observations from a re-analysis of the deposited data

How the results depend on the processing

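No paired analysis was possible because the comparison at 4 w has 1 library a side. A fit of treatment over the 5 times, with time as a block, asks about another comparison and was not run. The counts of 505 rises and 639 falls became 1578 and 1456 with no minimum, 258 and 290 with a minimum of 4 RPM, 2020 and 1801 with a log2 difference of at least 1, and 151 and 184 on the scale of log2(RPM + 1). Under quantile normalization (543 and 631), centring (489 and 652) and without overlapping features (450 and 606) they stayed within 1.5 times. Requiring intervals beyond 2-fold left them at 505 and 639, which the rule of size all but fixes at these depths. The share past the rule among genes of 64 RPM and over, 1.26%, was 7.04% with a log2 difference of at least 1 and 0.823% with classes set by the 4 w libraries. Chromosomes with more falls than rises were 3 with a log2 difference of at least 1 and 5 with log2(RPM + 1), against 10. Rises that went down in the control step, 22%, were 5.81% with a minimum of 4 RPM, 30.8% with a log2 difference of at least 1, 3.97% with log2(RPM + 1), 12.9% under quantile normalization and 0.594% with the step taken in US. US at 4 w lay outside the range of the 2 libraries of 1 w for 90.6% of genes past the rule, against 52.2% for the 8 others, and the control for 83.5%. Over all genes tested these shares were 86.3% and 81.6%, so this range hardly tells the libraries apart. Rises that were also higher in US at 1 w, 42.4%, were 34.4% with a log2 difference of at least 1 and 51% with log2(RPM + 1). Genes listed only at other times that passed, 24, were 12 with a minimum of 4 RPM, 83 with a log2 difference of at least 1 and 5 with log2(RPM + 1). Of the 110 named genes past the rule, 110 passed under quantile normalization and 90 with log2(RPM + 1). In neither did a gene change direction. On the scale of log2(RPM + 1) a change of direction is not possible, and for differences this large quantile normalization could hardly bring it about, so this adds nothing to the calls. The causes were not tested, except that a lower difference or no minimum admits more genes and log2(RPM + 1) shrinks differences of genes with few reads. At these depths 3 reads are 0.0654 RPM in the control and 0.0760 RPM in US.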
